A study of Homo sapiens with 24 samples.

Results

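The 52 genes described here encode the machinery of mitosis: 8 kinases, the B-type cyclins and CDC25 phosphatases (4 genes), 7 genes of the spindle checkpoint and anaphase, 11 kinesin motors, 7 kinetochore genes, 3 chromosomal passenger genes, 5 genes of spindle assembly and chromosome structure, 5 of cytokinesis and 2 transcription factors. They were chosen by name, with earlier results of these data known. All 52 were measured among the 19775 genes of the array table, each by its brightest probe set with a single gene symbol. RNA came from KARPAS-422, a diffuse large B-cell lymphoma line labelled as carrying EZH2 Y641N, so that the DMSO controls carry the mutation too. Cells received DMSO or an EZH2 inhibitor, not named in the labels, at 5 uM, and were harvested after 1, 2, 3 or 6 days, with 3 arrays in each of the 8 groups, which the submitters call biological triplicates. All 24 arrays are of 1 cell line, and their number limits the precision. EZH2 is a histone H3 methyltransferase, the enzyme at the core of a Polycomb complex that keeps genes silent.

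Mitosis is driven by cyclin B bound to CDK1, switched on by CDC25 phosphatases, while Aurora and Polo-like kinases build the spindle. Kinetochores tie chromosomes to microtubules, the checkpoint holds anaphase until all are attached, and the midzone proteins then divide the cell. Most of these transcripts peak late in the cell cycle under FOXM1 and the MYBL2-MuvB complex, and the B cells of the germinal centre, from which many large B-cell lymphomas derive, divide fast.

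All values are log2 expression from RMA, and each difference subtracts the DMSO mean of a day from the inhibitor mean of that day, with the standard error (SE) of the limma fit, n = 3 arrays per group. A gene was called, and is said to have risen or fallen, where its p adjusted over all 19775 genes was under 0.05. B cell markers were high (mean over 24 arrays 12.6 for MS4A1, 11.7 for PAX5 and 12.7 for BCL6). Of 20 measured markers of T and NK, myeloid, stromal and epithelial cells, 11 lay below the 25th percentile of all genes (4.23), although DCN (12.95) and CD3G (10.95) were bright. At day 6, 26.9% of all genes fell and 18.5% rose. Of the markers, 1 of 7 T and NK, 2 of 6 myeloid and 1 of 7 stromal and epithelial ones fell. Among the stromal and epithelial markers 1 rose, as did 3 of 6 B cell markers. Their mean levels per array at day 6 were 5.64 to 5.79 in DMSO and 5.50 to 5.66 with the inhibitor for T and NK cells, 4.01 to 4.20 and 3.88 to 3.95 for myeloid cells, 5.67 to 5.71 and 5.64 to 5.72 for stromal and epithelial cells, and 10.88 to 11.00 and 11.24 to 11.32 for B cells. Their part in the results was not tested.

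At day 6, 51 of the 52 mitotic genes fell and 1, GAS2L3, rose. Over all genes 26.9% fell and 18.5% rose at that day. In those 51 genes every inhibitor array lay below every DMSO array, which held for 32.3% of all genes. The median difference of the 52 genes was -1.22, against -0.11 for all genes, and 38 of them fell at least 2-fold, as did 2.43% of all genes. In RNA of whole cultures, fewer cells in mitosis and less transcript per cell cannot be told apart.

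**Figure D1:**
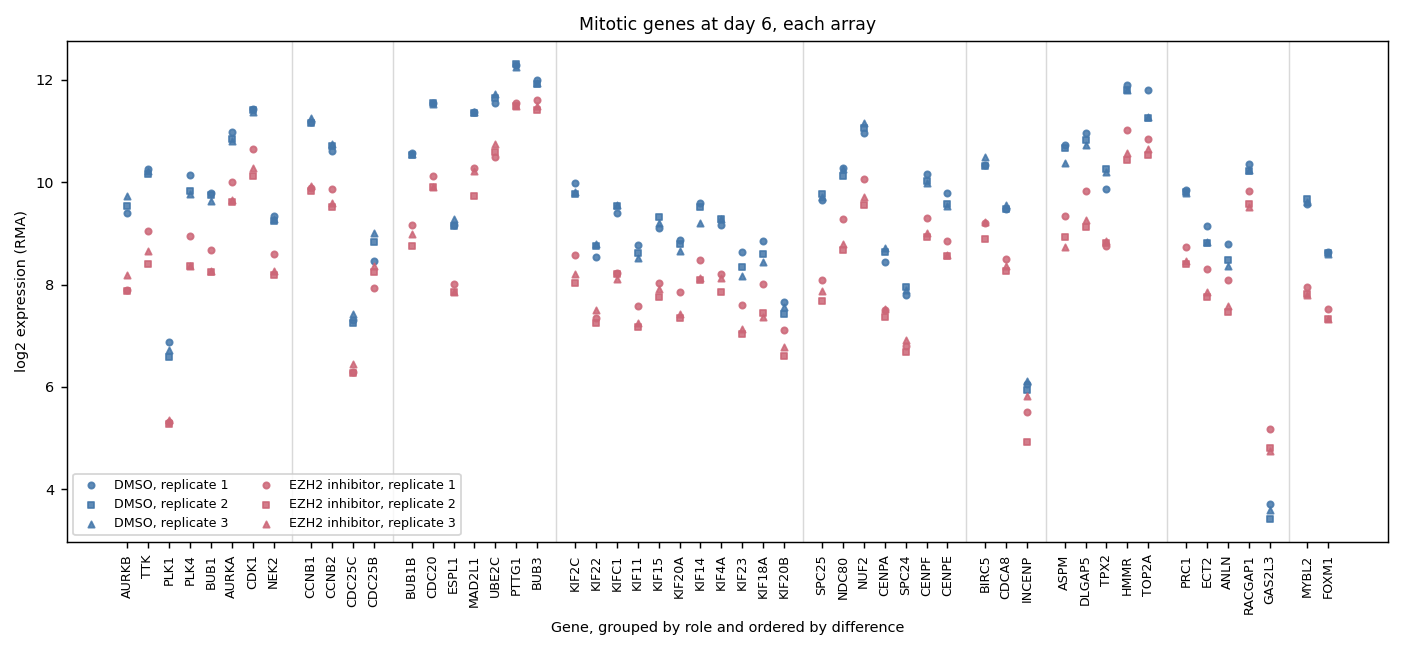
Log2 expression (vertical axis) of the 52 genes at day 6 in the 3 DMSO arrays (blue) and the 3 inhibitor arrays (red), grouped by role. The blue points lie above the red for 51 genes and below them for GAS2L3.

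The fall came late. At day 1 none of the 52 was lower (0 called by limma, 0 at an unadjusted p under 0.05), against 0.0101% of all genes, and the median difference was -0.01. At day 2 MYBL2 alone was lower, against 0.824% of all genes, with a median of -0.08. By day 3, 15 genes were lower, against 7.65% of all genes, and the median was -0.23. Those 15 genes were all among the 51 of day 6, and 36 of the 51 were called at day 6 and at no earlier day in this fit, which had no block. Blocking on the replicate number, 22 genes were lower at day 3 (against 11.9% of all genes), and 23 with a block within each day (against 12.6%). The change in effect from day 1 to day 6 was itself called for 48 genes, all lower, against 14.4% of all genes lower and 12.3% higher. From day 3 to day 6 it was called for 47, all lower, against 6.53% lower and 5.98% higher.

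The inhibitor arm moved over the days, and the DMSO arm moved little. Measured from the DMSO mean of day 1, the median over the 52 genes lay between -0.10 and 0.07 in the 12 DMSO arrays of the 4 days. In the inhibitor arm it was 0.07, -0.05 and -0.03 at day 1, -0.11, -0.14 and -0.11 at day 2, -0.21, -0.36 and -0.29 at day 3, and -1.05, -1.36 and -1.27 at day 6. The 3 inhibitor arrays of day 6 thus lay far below all others, replicate 1 being the highest of them, as it was for 40 of the 52 genes. Between days 1 and 6 limma called 0 of the 52 genes in the DMSO arm (3 lower and 1 higher at an unadjusted p under 0.05; over all genes 0.0506% lower and 0.238% higher), and 51 lower and 1 higher in the inhibitor arm (24% and 16.9%). From day 1 to day 3 the inhibitor arm had 22 lower and 1 higher, against 8.75% and 7.52% of all genes. Blocking on the replicate number, KIF14 was called lower in the DMSO arm, by 0.37 ± 0.08 (adjusted p = 0.035).

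**Figure D2:**
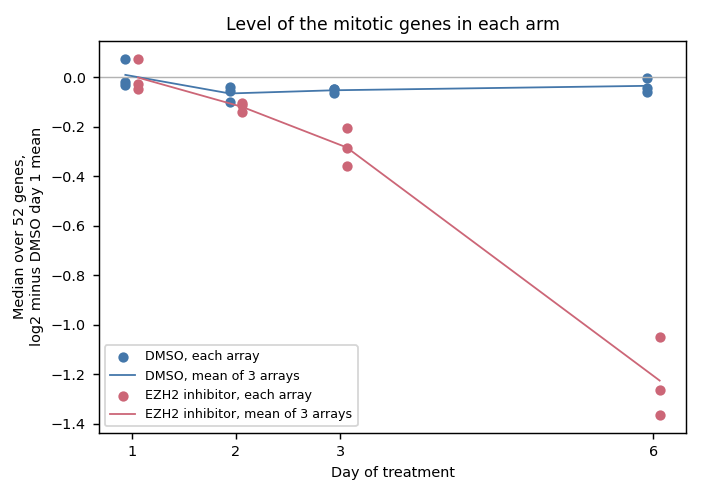
Median over the 52 genes of log2 expression minus the DMSO mean of day 1 (vertical axis) against the day of treatment, for each array (points) and as means of 3 arrays (lines). DMSO arrays stay between -0.10 and 0.07, and inhibitor arrays reach -1.36 to -1.05 at day 6.

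The promoters of these genes are known for a short element named the cell cycle genes homology region (CHR), bound by the MuvB complexes, and for CCAAT boxes, bound by NF-Y. RefSeq promoters (GRCh38.p14, 250 bases before to 50 after each start) matched 44 of the 52 genes by symbol. A CHR word, TTTGAA or TTCGAA on either strand, stood in a promoter of 34 of the 44 genes (77.3%), against 19.5% of all 27305 genes with promoters there. CCAAT on either strand stood in 35 (79.5%, against 39.7%), and both motifs shared a promoter in 28 (63.6%, against 7.85%). A CHR word began between positions -60 and 10 in 25 of the 44 (56.8%, against 4.8%), a window chosen after the positions were seen. The E2F words TTTGGCGC, TTTCCCGC, TTTCGCGC and TTTGCCGC were found in 3 (6.82%, against 3.99%). A match is a description of letters and does not show a bound site.

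The 150 bases before the start are shown for 1 gene of each role with a CHR word there, and for MYBL2 and GAS2L3, whose windows of 300 bases held neither word of CHR nor CCAAT. Capitals mark CHR words and CCAAT boxes, the latter read ATTGG where they lie on the opposite strand.
PLK1, chr16:23678739-23678888, plus strand: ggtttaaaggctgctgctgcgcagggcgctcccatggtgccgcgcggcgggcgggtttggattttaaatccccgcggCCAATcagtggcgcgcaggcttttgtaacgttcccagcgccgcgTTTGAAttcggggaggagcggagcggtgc
CCNB2, chr15:59104996-59105145, plus strand: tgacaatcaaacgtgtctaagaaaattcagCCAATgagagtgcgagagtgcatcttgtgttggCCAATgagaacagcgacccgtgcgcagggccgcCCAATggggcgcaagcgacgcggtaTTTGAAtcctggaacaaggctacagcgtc
CDC20, chr1:43358831-43358980, plus strand: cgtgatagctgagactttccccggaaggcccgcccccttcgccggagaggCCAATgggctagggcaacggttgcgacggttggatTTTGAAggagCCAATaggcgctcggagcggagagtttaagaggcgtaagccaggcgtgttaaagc
KIF4A, chrX:70289954-70290103, plus strand: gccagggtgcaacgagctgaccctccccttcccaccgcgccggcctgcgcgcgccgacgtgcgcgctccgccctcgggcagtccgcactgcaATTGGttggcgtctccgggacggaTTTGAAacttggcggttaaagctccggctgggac
CENPA, chr2:26785906-26786055, plus strand: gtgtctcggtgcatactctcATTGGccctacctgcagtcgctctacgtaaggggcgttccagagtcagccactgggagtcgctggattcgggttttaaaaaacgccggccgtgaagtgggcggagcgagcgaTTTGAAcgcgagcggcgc
CDCA8, chr1:37692366-37692515, plus strand: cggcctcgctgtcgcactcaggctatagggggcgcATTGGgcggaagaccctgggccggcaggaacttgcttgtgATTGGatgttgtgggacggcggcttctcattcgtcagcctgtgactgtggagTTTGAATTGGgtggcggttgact
HMMR, chr5:163460482-163460631, plus strand: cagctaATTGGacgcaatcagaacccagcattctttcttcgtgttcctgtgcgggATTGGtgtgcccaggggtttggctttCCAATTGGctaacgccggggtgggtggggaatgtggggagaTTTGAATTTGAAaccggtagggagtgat
PRC1, chr15:90994536-90994685, minus strand: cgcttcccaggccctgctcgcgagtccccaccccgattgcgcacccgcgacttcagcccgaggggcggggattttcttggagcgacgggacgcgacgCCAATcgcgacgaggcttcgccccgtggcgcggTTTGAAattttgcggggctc
MYBL2, chr20:43666964-43667113, plus strand: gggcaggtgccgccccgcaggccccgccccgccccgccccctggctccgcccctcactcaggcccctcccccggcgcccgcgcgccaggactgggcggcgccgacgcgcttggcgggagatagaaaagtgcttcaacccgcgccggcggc
GAS2L3, chr12:100593468-100593617, plus strand: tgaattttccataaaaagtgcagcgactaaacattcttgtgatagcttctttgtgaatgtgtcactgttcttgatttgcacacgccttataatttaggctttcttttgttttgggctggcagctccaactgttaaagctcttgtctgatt
In PLK1 and CCNB2 the CHR word begins 29 bases before the start, and CCNB2 has CCAAT boxes at 120, 87 and 54 bases before it. In CDC20 a CHR word at 65 bases stands between CCAAT boxes at 100 and 55. HMMR has adjoining CHR words at 28 and 22 bases, and in CDCA8 the CHR word overlaps an ATTGG. KIF2C and CENPE likewise had neither motif in their windows.

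MYBL2, the B-Myb subunit that joins MuvB to switch on late cell cycle genes, was the earliest gene to fall. Its arrays read 9.48, 9.55 and 9.71 in DMSO and 9.23, 9.22 and 9.34 with the inhibitor at day 2, 9.64, 9.55 and 9.51 against 8.92, 8.72 and 8.99 at day 3, and 9.58, 9.67 and 9.62 against 7.95, 7.82 and 7.80 at day 6. The groups did not overlap at any of these days, and DMSO stayed within 9.48 to 9.73 throughout. The difference was -0.32 ± 0.09 at day 2 (adjusted p = 0.038), -0.69 ± 0.09 at day 3 (adjusted p = 6.7e-06) and -1.77 ± 0.09 at day 6 (adjusted p = 8e-13), a 3.41-fold fall. The day 2 call was lost without DMSO replicate 2 or 3 or any of the 3 inhibitor arrays of that day (adjusted p 0.056 to 0.18). It was also lost with only the groups compared (adjusted p = 0.11). The MYBL2 difference at day 2 was 17.9% of that at day 6. That share was larger for BUB3 (30.6%) and KIF20B (29.4%), neither of them called at day 2. Whether MYBL2 fell before other genes was not tested. FOXM1, the forkhead factor of the same genes, had fallen by 1.23 ± 0.09 at day 6 (adjusted p = 1.6e-10) but differed by -0.20 ± 0.09 at day 3 (adjusted p = 0.13). FOXM1 read 8.63, 8.62 and 8.60 in DMSO and 7.52, 7.33 and 7.32 with the inhibitor at day 6.

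All 8 mitotic kinases fell at day 6, with a median difference of -1.35 and 7 of them at least 2-fold. AURKB, the kinase of the chromosomal passenger complex, read 9.39, 9.54 and 9.73 in DMSO and 7.89, 7.87 and 8.19 with the inhibitor, and fell by 1.57 ± 0.14 (adjusted p = 6.5e-09). TTK, which starts the checkpoint signal at kinetochores, read 10.27, 10.16 and 10.21 against 9.05, 8.40 and 8.65, a fall of 1.51 ± 0.11 (adjusted p = 1.8e-10). PLK1, which acts at centrosomes, kinetochores and the midzone, read 6.88, 6.59 and 6.73 against 5.31, 5.28 and 5.35. These 3 kinases were the ones of the 8 called at day 3 without a block, by -0.44 ± 0.14 for AURKB, -0.40 ± 0.13 for PLK1 and -0.33 ± 0.11 for TTK (adjusted p = 0.038, 0.042 and 0.041). With only the groups compared these calls were lost (adjusted p = 0.06, 0.17 and 0.053). That of AURKB was also lost with the mean of its probe sets (-0.26, adjusted p = 0.17). Blocking on the replicate number within each day, PLK4 and AURKA were called at day 3 as well (adjusted p = 0.021 and 0.033).

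PLK4, which duplicates centrioles, and BUB1, the kinetochore kinase of the checkpoint, fell by 1.36 ± 0.17 and 1.33 ± 0.10 at day 6. AURKA, which matures centrosomes and the spindle, fell by 1.12 ± 0.09 and NEK2, which separates centrosomes, by 0.94 ± 0.10. CDK1, the kinase at the head of mitotic entry, was not called through day 3, when it read 11.46, 11.44 and 11.45 in DMSO and 11.48, 11.29 and 11.33 with the inhibitor. At day 6 it read 11.42, 11.40 and 11.38 against 10.64, 10.11 and 10.28, a fall of 1.06 ± 0.10 (adjusted p = 7.9e-09). Inhibitor replicate 1 was the highest of its group for CDK1, as for AURKA, PLK4, BUB1, TTK and NEK2.

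The partners of CDK1 fell as well, all 4 of them, with a median of -1.01. CCNB1, cyclin B1, read 11.17, 11.16 and 11.26 in DMSO and 9.88, 9.83 and 9.93 with the inhibitor at day 6, a fall of 1.32 ± 0.08 (adjusted p = 3e-11). It was the member of this group called at day 3 (-0.26 ± 0.08, adjusted p = 0.038). That call was lost with the mean of its probe sets (-0.16, adjusted p = 0.13) and with only the groups compared (adjusted p = 0.095). It was also lost without DMSO replicate 2 or 3 or any inhibitor array of day 3 (adjusted p 0.064 to 0.16). CCNB2 fell by 1.03 ± 0.11 and CDC25C, a phosphatase that activates CDK1, by 0.99 ± 0.11, both with day 3 differences near 0 (-0.10 and -0.02). CDC25B, the phosphatase that starts CDK1 activation, read 8.47, 8.84 and 9.01 against 7.94, 8.25 and 8.35. Its groups were 0.11 apart at their closest, and its fall of 0.59 ± 0.20 (adjusted p = 0.021) was lost without DMSO replicate 2 or 3 or inhibitor replicate 1 (adjusted p = 0.061, 0.098 and 0.1).

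In the checkpoint and anaphase group all 7 genes fell, over a wide range. BUB1B, which encodes the checkpoint protein BubR1, read 10.58, 10.53 and 10.55 in DMSO and 9.17, 8.76 and 8.99 with the inhibitor at day 6 (-1.58 ± 0.09, adjusted p = 3.3e-12). CDC20, the activator of the anaphase-promoting complex that the checkpoint restrains, read 11.54, 11.54 and 11.53 against 10.11, 9.90 and 9.90 (-1.57 ± 0.08, adjusted p = 3.2e-12). CDC20 also moved in the control arm, falling in DMSO by 0.48 ± 0.08 between days 1 and 3 (adjusted p = 0.01), the 1 gene of the 52 called there, against 0.0759% of all genes lower and 0.379% higher. MAD2L1, which holds CDC20 in the checkpoint complex, and ESPL1, the separase that cuts cohesin, fell by 1.29 ± 0.13 and 1.29 ± 0.08. UBE2C, a ubiquitin-conjugating enzyme of the anaphase-promoting complex, fell by 1.03 ± 0.10, and PTTG1, the securin that restrains separase, by 0.78 ± 0.06. BUB3, the partner of BUB1 and BubR1, had the smallest fall of the 51: it read 11.99, 11.91 and 11.93 against 11.61, 11.42 and 11.50 (-0.43 ± 0.07, adjusted p = 2.5e-05). Its probe sets disagreed in size: of 5 others, the one nearest in level (mean 11.70) fell by 0.86 and a dim one by 0.38, while those with means of 10.59 and 9.94 differed by -0.11 and -0.19 and were not called, nor was the dimmest.

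All 11 mitotic kinesins fell, 10 of them at least 2-fold, with a median of -1.23. KIF2C, which depolymerises microtubules at centromeres, read 9.98, 9.77 and 9.81 in DMSO and 8.57, 8.03 and 8.21 with the inhibitor at day 6 (-1.59 ± 0.10, adjusted p = 3.7e-11). It had fallen by 0.59 ± 0.10 at day 3 (adjusted p = 0.00025), when its arrays read 9.83, 9.89 and 9.95 against 9.46, 9.16 and 9.29. KIF15, which supports spindle bipolarity, KIF22, a chromosome arm motor, and KIF11, the motor that pushes spindle poles apart, were also called at day 3, at -0.47 ± 0.09, -0.44 ± 0.08 and -0.31 ± 0.10 (adjusted p = 0.00045, 0.00071 and 0.03). Their day 6 falls were 1.31, 1.32 and 1.31. The day 3 call of KIF22 was lost with the mean of its probe sets (-0.34, adjusted p = 0.19). That of KIF11 was lost without DMSO replicate 1 or 2 or any inhibitor array of day 3 (adjusted p 0.06 to 0.1).

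KIFC1, the minus-end motor that gathers poles, fell by 1.32 ± 0.09 at day 6. The midzone and cytokinesis motors KIF20A, KIF14, KIF4A and KIF23 fell by 1.23, 1.21, 1.17 and 1.13, and KIF18A, which limits chromosome movement at the plate, by 1.01 ± 0.18. KIF20B, a cytokinesis motor, had the smallest fall of the kinesins (-0.72 ± 0.13), reading 7.66, 7.43 and 7.56 in DMSO and 7.10, 6.60 and 6.77 with the inhibitor. Of 28 other kinesins, mostly motors of vesicle and organelle transport, 10 fell (35.7%) and 6 rose (21.4%) at day 6, with a median of -0.14, shares near the 26.9% and 18.5% of all genes. KIF16B rose by 1.31 ± 0.15, KIF26B by 1.12 ± 0.16 and KIF13B by 1.09 ± 0.11, while KIF9 fell by 0.89 ± 0.09.

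The 7 kinetochore genes fell with a median of -1.13, and SPC25, of the NDC80 complex that grips microtubules, had the deepest fall of all 52 genes. It read 9.66, 9.77 and 9.72 in DMSO and 8.09, 7.67 and 7.87 with the inhibitor at day 6 (-1.84 ± 0.11, adjusted p = 2.6e-11), a 3.57-fold fall. It was the kinetochore gene called at day 3, when it read 9.54, 9.90 and 9.74 against 9.19, 9.17 and 9.17 (-0.55 ± 0.11, adjusted p = 0.0016). The other subunits of that complex, NDC80, NUF2 and SPC24, fell by 1.30, 1.28 and 1.08 at day 6. CENPA, the centromeric histone H3 variant, fell by 1.13 ± 0.15 and CENPE, a kinetochore motor, by 0.97 ± 0.15. CENPF, a large kinetochore protein of G2 and M phase, was not called before day 6: at day 3 it read 10.09, 9.97 and 10.03 against 10.16, 10.06 and 10.02. At day 6 it read 10.15, 10.03 and 9.99 against 9.3, 8.9 and 9.0 (-0.98 ± 0.09, adjusted p = 3.6e-09).

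The chromosomal passenger subunits BIRC5 (survivin) and CDCA8 (borealin) fell by 1.29 ± 0.10 and 1.12 ± 0.07 at day 6, and CDCA8 by 0.24 ± 0.07 at day 3 (adjusted p = 0.027). That day 3 call was lost with only the groups compared (adjusted p = 0.11). It was also lost without DMSO replicate 1 or 3 or inhibitor replicate 2 or 3 of day 3 (adjusted p 0.051 to 0.12). INCENP, the scaffold of the complex, read 6.06, 5.95 and 6.12 in DMSO and 5.51, 4.92 and 5.82 with the inhibitor. Inhibitor replicate 2 was the lowest array, and the fall of 0.63 ± 0.19 (adjusted p = 0.0085) was -0.38 and no longer called without it (adjusted p = 0.084). Among genes of spindle assembly and chromosome structure, ASPM, a spindle pole protein, fell by 1.59 ± 0.17, DLGAP5, which stabilises kinetochore fibres, by 1.43 ± 0.14, TPX2, the activator of AURKA, by 1.30 ± 0.17 and HMMR, a spindle pole adaptor, by 1.15 ± 0.10. TOP2A, the topoisomerase that untangles chromosomes, read 11.79, 11.26 and 11.27 against 10.85, 10.53 and 10.65 (-0.76 ± 0.21, adjusted p = 0.0042). None of these 5 genes was called at day 3 without a block, and ASPM was called with the replicate block (-0.40, adjusted p = 0.0012, and 0.0027 with the block within each day).

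Of the 5 cytokinesis genes 4 fell at day 6. PRC1, which bundles midzone microtubules, read 9.85, 9.81 and 9.79 in DMSO and 8.74, 8.40 and 8.46 with the inhibitor (-1.29 ± 0.08, adjusted p = 1.3e-11), after a fall of 0.24 ± 0.08 at day 3 (adjusted p = 0.038). That day 3 call was lost with only the groups compared (adjusted p = 0.11). It was also lost without any 1 of the DMSO arrays or inhibitor replicate 2 or 3 of day 3 (adjusted p 0.061 to 0.15). ECT2, the exchange factor that activates RhoA at the furrow, fell by 0.96 ± 0.13, ANLN, anillin of the contractile ring, by 0.83 ± 0.17, and RACGAP1, the GTPase-activating subunit of centralspindlin, by 0.63 ± 0.08.

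GAS2L3, which links actin and microtubules in late mitosis, went the other way at all 4 days. It read 3.10, 3.07 and 3.19 in DMSO and 4.22, 3.93 and 3.70 with the inhibitor at day 1, and 3.20, 3.56 and 3.37 against 4.51, 4.89 and 4.10 at day 2. At day 3 it read 3.33, 3.76 and 3.57 against 5.01, 5.12 and 4.76, and at day 6 3.71, 3.42 and 3.59 against 5.18, 4.81 and 4.74. The groups were separate at each day, and the differences were 0.83 ± 0.17, 1.12 ± 0.17, 1.41 ± 0.17 and 1.34 ± 0.17 (adjusted p = 0.024, 0.00022, 3.8e-06 and 1.1e-06). It was the 1 gene of the 52 that rose at any day, where 0.475%, 3.57%, 8.64% and 18.5% of all genes rose at days 1, 2, 3 and 6. The call at day 1 was lost without any 1 of the DMSO arrays or inhibitor replicates 1 and 2 of that day (adjusted p 0.052 to 0.15). GAS2L3 was also the dimmest of the 52, at the 21.5th percentile of all genes and the 1 gene of them below the 25th, while 44 of the 52 lay above the 75th. Its second probe set, dimmer still (mean 2.97), differed by 0.11 ± 0.11 at day 6 and was not called (adjusted p = 0.48).

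**Figure D3:**
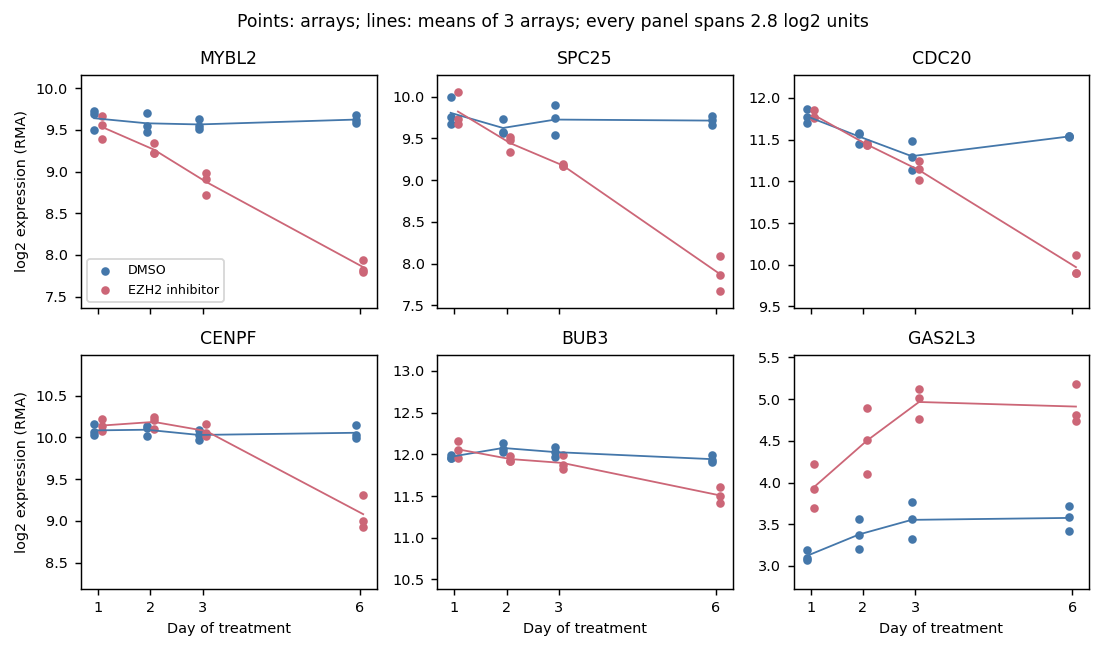
Log2 expression (vertical axes, each spanning 2.8 log2 units) of MYBL2, SPC25, CDC20, CENPF, BUB3 and GAS2L3 against the day of treatment, with arrays as points and means of 3 arrays as lines. MYBL2 is lower from day 2, CENPF is not called before day 6, BUB3 falls by 0.43 at day 6 and GAS2L3 is higher with the inhibitor at all 4 days.

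For each of the 51 genes that fell, the size of the difference at day 3 was set against that at day 6. The difference at day 3 was 19.3% of that at day 6 in the median gene. It was largest for KIF20B (47.3%), MYBL2 (39.0%), KIF2C (37.1%), KIF15 (35.9%) and KIF22 (33.6%), and smallest for CENPF (-4.77%), TOP2A (0.067%) and CDC25C (2.31%). By role the median share was 27.7% for the 2 transcription factors, 25.9% for checkpoint and anaphase genes, 23.6% for kinesins, 21.2% for kinases, 21.0% for passenger genes, 16.9% for kinetochore genes, 14.4% for cyclins and CDC25, 13.5% for the 4 cytokinesis genes that fell and 11.9% for spindle and chromosome genes. KIF20B was not called at day 3 (-0.34 ± 0.13, adjusted p = 0.07). Whether these shares differ between genes or roles was not tested. The day 3 calls of ESPL1, KIF2C, KIF15 and MYBL2 held in all 15 alternatives run at that day, and that of GAS2L3 in the 14 that could give it a value. Every other day 3 call was lost in some alternative.

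**Figure D4:**
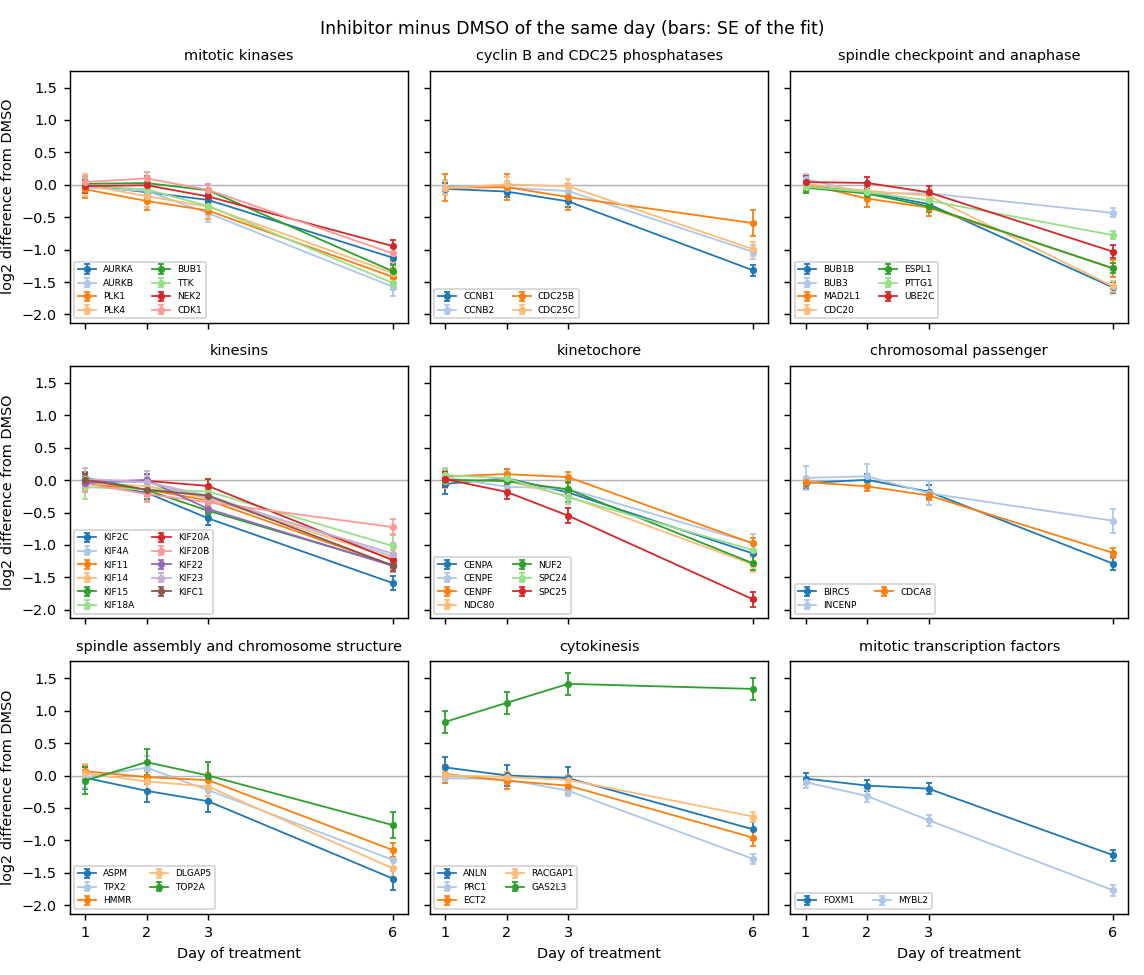
Difference in log2 expression, inhibitor minus DMSO of the same day (vertical axis), against the day of treatment for each gene, 1 panel per role, with bars of 1 SE of the limma fit. At day 2 the genes other than GAS2L3 lie between -0.32 (MYBL2) and 0.21 (TOP2A), at day 3 15 of them are called lower, and at day 6 51 are. GAS2L3 in the cytokinesis panel is above 0 from day 1.

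The count at day 3 depended on the arrays and on the fit. It was 9, 10 and 8 without DMSO replicates 1, 2 and 3, 8 without inhibitor replicate 2 or 3, 15 without inhibitor replicate 1 and 6 without all arrays numbered 3. The share of all genes called lower, 7.65% with all arrays, shrank too. It was 5.83%, 5.9% and 6.11% without DMSO replicates 1, 2 and 3. Without inhibitor replicates 1, 2 and 3 it was 7.15%, 4.86% and 5.73%, and without all arrays numbered 3 it was 4.02%. Same-numbered DMSO and inhibitor arrays of day 3 deviated together over all genes (correlations of 0.38, 0.19 and 0.37), and blocking on that number within each day 23 genes were lower (22 with 1 block over all days), against 12.6% of all genes. The genes added by 1 or both blocks were AURKA, PLK4, KIF4A, KIF14, KIF20B, KIF23, KIFC1, SPC24 and ASPM, with differences of -0.23 to -0.40.

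Beyond the 52, other genes of mitosis fell too. Of 75 further mitotic genes, listed from general knowledge with earlier results of these data known, 74 were measured. At day 6, 63 of these fell (85.1%) and 1 rose (1.35%), against 26.9% and 18.5% of all genes, with a median of -0.94. At day 3, 25 were lower (33.8%, against 7.65% of all genes). The count was 3 at day 2 (4.05%, against 0.824%) and 0 at day 1 (against 0.0101%). CDC25A, the phosphatase of the G1/S and G2/M transitions, fell by 1.96 ± 0.10, the centromere genes CENPM and CENPN by 1.81 ± 0.10 and 1.75 ± 0.10, and the condensin subunit NCAPH by 1.78 ± 0.13. Among 11 MuvB subunits, pocket proteins and E2F partners, 5 fell (45.5%) and 2 rose (18.2%) at day 6, with a median of -0.18, against 26.9%, 18.5% and -0.11 for all genes. LIN9, a MuvB core subunit, fell by 0.85 ± 0.20, RBL1, the p107 pocket protein, by 0.89 ± 0.17 and TFDP1, the partner of E2F, by 0.51 ± 0.11. RBL2, the p130 pocket protein of the repressive DREAM form of MuvB, rose by 0.72 ± 0.08.

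**Figure D5:**
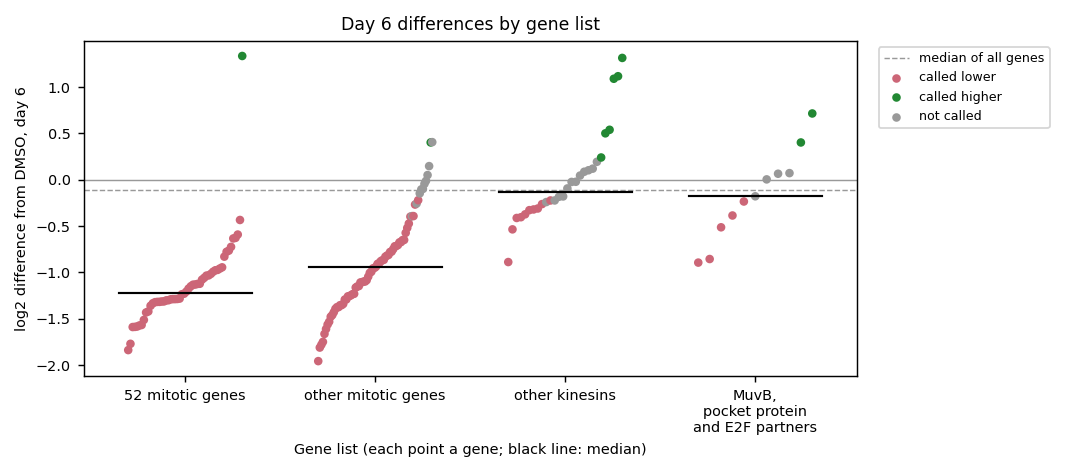
Difference in log2 expression at day 6 (vertical axis) for each gene of 4 lists, with black lines at the list medians and a dashed line at the median of all genes (-0.11). Points are coloured by call (red lower, green higher, grey not called): 51 of the 52 mitotic genes and 63 of 74 other mitotic genes are lower, while the other kinesins fall on both sides of 0.

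No further probe set of the 52 genes rose at day 6. For 26 genes there was 1 probe set, and the other 26 had 47 further probe sets, of which 36 were called lower and none higher. Of the remaining 11, 9 were below the 25th percentile of gene levels, and the brighter 2 were those of BUB3. Over the 51 genes the DMSO mean at day 6 and the difference had a Spearman correlation of -0.12 and a Pearson correlation of -0.09, a description over genes that share the same 6 arrays. The difference subtracts that same DMSO mean, so noise in the mean alone makes these correlations more negative. No relation of level to change is read from them.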

How the data were processed

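Total RNA was hybridised to 24 Affymetrix U133 Plus 2 arrays. For 54613 probe sets the authors deposited RMA expression on a log2 scale; RMA and R 2.10.1 are named in the submitters' processing notes, while the log base is not stated and was taken from the range. RMA comes without detection calls and compresses the changes of dim probe sets. Genes were named from the platform's table (41091 probe sets with 1 symbol, 1801 with several, left out, and 11721 unnamed here), with symbols updated by Entrez ID for 41037. Each of 19775 genes was read from its brightest probe set by the mean of 24 arrays.

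Differences were tested with limma 3.58.1 in R 4.3.3 (1 coefficient per group, 24 arrays, 16 residual degrees of freedom, eBayes), 2-sided, with Benjamini-Hochberg adjustment across the 19775 genes. P-values measure the spread between these arrays of 1 line. The code was tested on simulated data. The members, lists and motifs were chosen with earlier results of these data known. All 52 genes are named, with up to 4 called genes of each other list with the largest differences at day 6, and for the change of the effect over time the 5 lowest called.

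Equal replicate numbers are not said to mark shared handling, within a day or across days. After removal of group means, same-numbered DMSO and inhibitor arrays of a day correlated above 0.1 in 11 of 12 pairs, all but number 2 of day 2 (0.04). Over all days, 23 of the 24 arrays correlated best with an array of their own number among those of other groups. The median correlation between groups was 0.24 for equal numbers and -0.13 for others, so arrays of different days may not be independent. Fits without a block, which treat all arrays as independent, are the ones reported. Blocked values are given where they change a count. Alternatives were the mean of probe sets, a filter on the dimmest 40 percent of genes, quantile normalization again, array medians subtracted, blocks, array weights, only the groups compared, and arrays left out.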

Additional observations from a re-analysis of the deposited data

Results flagged for a closer look

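The difference from DMSO was not the same at day 6 as at day 1 for 48 of the 52 mitotic genes, all more negative at day 6 by the limma contrast of the effects at both days (14.4% of all genes were lower in that contrast). The lowest values were -1.85 ± 0.16 for SPC25, -1.67 ± 0.12 for MYBL2, -1.58 ± 0.12 for CDC20, -1.57 ± 0.12 for BUB1B and -1.55 ± 0.25 for ASPM (adjusted p = 2.7e-08, 2.8e-09, 4.1e-09, 5.2e-09 and 4.3e-05). None of the 52 had a called change in the opposite direction; the difference of GAS2L3 was larger at day 6 than at day 1 by 0.51 ± 0.24 at an unadjusted p under 0.05 (adjusted p = 0.13).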

How the results depend on the processing

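At day 6 the count of lower genes was 51 in every alternative that left out no single array and 50 to 51 without single arrays, and 775 of the 779 values of single genes kept their call (the exceptions are those of CDC25B and INCENP given above). Without the 40 percent dimmest genes GAS2L3 is not tested, so the count of higher genes was 0 at days 1, 2, 3 and 6 and between days 1 and 6 of the inhibitor arm. At day 3 the lower genes numbered 6 without all arrays numbered 3, 8 with only the groups compared, 23 with the replicate block within each day (22 with 1 replicate block over all days) and 8 to 15 without single arrays. The shares of all genes called lower were, in that order, 4.02%, 4.41%, 12.6% (11.9%) and 4.86% to 7.15%, against 7.65% in the reported fit. At day 2 the lower count was 0 without all arrays numbered 3 and with only the groups compared and 0 to 1 without single arrays, while the median was -0.060 with the mean of probe sets and ranged from -0.088 to -0.047 without single arrays. At day 1 the higher count was 0 to 1 without single arrays. Between days 1 and 6 of DMSO 1 gene, KIF14, was lower with the replicate block. The block changed no other count by more than 1.5 times; with it 51 effects differed between days 6 and 1. Subtracting array medians set the median of all genes at day 6 to -0.13 from -0.11, with 30% lower and 17.8% higher. The number of arrays limits day 2 and 3 calls, and low signal limits GAS2L3.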
